A study of Mus musculus with 48 samples.

Results

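The genes described here encode antimicrobial and proteolytic cargo of neutrophils. They were taken by symbol from the annotation of the array platform: Ngp, Camp, Ltf, Mpo, Elane, Prtn3, Ctsg, S100a8, S100a9 and Lcn2. All 10 genes were measured, by 12 of 12422 probe sets (10 of 8251 named genes), with 2 probe sets each for Mpo and Lcn2. Expression was measured on 48 Affymetrix MG-U74Av2 arrays of liver, heart, spleen and lung from A/J and C57BL/6J, both inbred mouse strains, at time 1 and time 2, with 3 arrays in each of 16 groups. The animals were male littermates aged 3 months, and no treatment was named for any group. What the times stand for was not given in the sources used here. Values are log2 expression, so that a difference of 1 is a doubling. As a check of the labels, the mean of the B cell list was 11.17 or more in spleen and 9.91 or less in lung, and that of the lung epithelium list 12.78 or more in lung and 9.06 or less in spleen.

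Neutrophils load their granules in a fixed order as they mature. Azurophil granules are filled first, with myeloperoxidase (Mpo) and the serine proteases neutrophil elastase (Elane), proteinase 3 (Prtn3) and cathepsin G (Ctsg). Specific granules follow, with neutrophilic granule protein (Ngp), the cathelicidin Camp, lactoferrin (Ltf) and lipocalin 2 (Lcn2), a siderophore binder that epithelial and other cells also make. S100a8 and S100a9 form the calcium-binding heterodimer calprotectin, the main cytosolic protein of the mature cell. Bone marrow is the chief site of granulopoiesis, the mouse spleen retains some of it in the red pulp, and the lung vasculature holds many circulating neutrophils.

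The promoters of 5 members are shown here. Ngp, Ltf, S100a8 and Mpo had a called strain difference in spleen, which Elane had not. Camp was also called in spleen but is not shown, and its promoter held neither of the sequence forms marked below. The sequences are the 250 bases before the RefSeq transcription start (GRCm38.p6), 5′ to 3′ on the gene's strand. Capitals mark matches, on either strand, to the C/EBP half-palindrome TTNNGNAA or to the PU.1 (ETS) core GAGGAA. C/EBP factors and PU.1 are classical transcription factors of the granulocyte lineage. Ngp and Ltf stand for the specific granules, S100a8 for the cytosolic pair, and Mpo and Elane for the azurophil granules.
Ngp (chr9:110419558-110419807, + strand): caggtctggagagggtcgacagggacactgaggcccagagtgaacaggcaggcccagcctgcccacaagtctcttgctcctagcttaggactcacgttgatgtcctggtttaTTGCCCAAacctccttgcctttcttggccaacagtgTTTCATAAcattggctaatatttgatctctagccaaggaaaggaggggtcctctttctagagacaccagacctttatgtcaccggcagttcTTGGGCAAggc
Ltf (chr9:111019042-111019291, + strand): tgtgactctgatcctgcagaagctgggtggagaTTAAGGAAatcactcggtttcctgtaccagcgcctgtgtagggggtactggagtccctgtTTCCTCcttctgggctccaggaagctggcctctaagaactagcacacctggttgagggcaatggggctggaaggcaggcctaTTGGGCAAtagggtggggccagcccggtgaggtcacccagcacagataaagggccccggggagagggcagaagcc
S100a8 (chr3:90668821-90669070, + strand): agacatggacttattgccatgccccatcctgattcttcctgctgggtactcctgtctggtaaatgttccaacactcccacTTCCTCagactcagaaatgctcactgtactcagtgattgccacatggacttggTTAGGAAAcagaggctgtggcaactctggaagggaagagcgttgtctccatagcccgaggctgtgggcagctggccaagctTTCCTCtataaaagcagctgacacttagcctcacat
Mpo (chr11:87793534-87793783, + strand): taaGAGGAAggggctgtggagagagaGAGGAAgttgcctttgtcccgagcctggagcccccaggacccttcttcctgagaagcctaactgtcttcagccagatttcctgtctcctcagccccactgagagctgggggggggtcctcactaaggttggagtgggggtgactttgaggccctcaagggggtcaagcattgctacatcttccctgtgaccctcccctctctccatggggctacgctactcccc
Elane (chr10:79886062-79886311, + strand): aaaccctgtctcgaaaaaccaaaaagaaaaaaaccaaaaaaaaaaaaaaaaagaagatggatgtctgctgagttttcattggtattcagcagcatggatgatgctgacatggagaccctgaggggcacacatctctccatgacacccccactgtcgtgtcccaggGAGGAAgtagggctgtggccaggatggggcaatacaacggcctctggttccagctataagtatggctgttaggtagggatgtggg

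All 10 genes had a promoter entry. TTNNGNAA occurred in 5 of the 10 (Ngp, Ltf, Lcn2, S100a8, S100a9), against 36.8% of 32536 promoter windows of the same length. GAGGAA occurred in 7 of the 10, the 4 azurophil genes together with Ltf, Lcn2 and S100a8, against 23.4% of windows. The tighter C/EBP form TTGNNNAA, which can overlap the first, occurred in 4 of the 10 (33.3% of windows), the Gfi1 form AATCNNNG in 1 (28.3%) and TATAAA in 2 (12.3%). A match describes the letters and is no measured binding site. Prtn3 and Elane are adjacent genes on chromosome 10, as are S100a8 and S100a9 on chromosome 3. Camp, Ngp and Ltf lie in the same region of chromosome 9 with other genes between them. Their promoter windows start at bases 109849457, 110419558 and 111019042.

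The granule genes differed between the strains in opposite directions in spleen and lung. In spleen all 12 probe sets read higher in A/J than in C57BL/6J and 5 passed the test: Ngp by 2.01-fold, Camp by 1.82-fold, Mpo by 1.75-fold, S100a8 by 1.62-fold and Ltf by 1.4-fold. In lung all 12 read lower in A/J and 4 passed: Lcn2 by 2.1-fold, Ngp by 1.64-fold, Camp by 1.49-fold and Ltf by 1.3-fold. The difference between these strain effects passed for 8 of the 12 probe sets. Tests were made with limma on all 12422 probe sets, two-sided, with Benjamini-Hochberg adjustment, and a probe set was called at an adjusted p below 0.05. Errors after ± are standard errors of the fit unless SD is named, and 3 animals per group limit the precision.

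In spleen, 5 of 12 probe sets were called higher and 0 lower, where 6.05% of all probe sets were called higher and 12.7% in either direction. In lung, 4 of 12 were called lower and 0 higher, where 2.52% of all were called lower and 5.22% in either direction. The median difference over the 12 probe sets was 0.44 in spleen and -0.31 in lung, against -0.01 and -0.02 over all probe sets. In heart 1 of 12 was called (7.48% of all), and in liver 0 by limma (4.07% of all), with Lcn2 (160564_at) alone at an unadjusted p below 0.05 there. In bulk tissue, fewer neutrophils and less mRNA per neutrophil cannot be told apart.

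**Figure D1:**
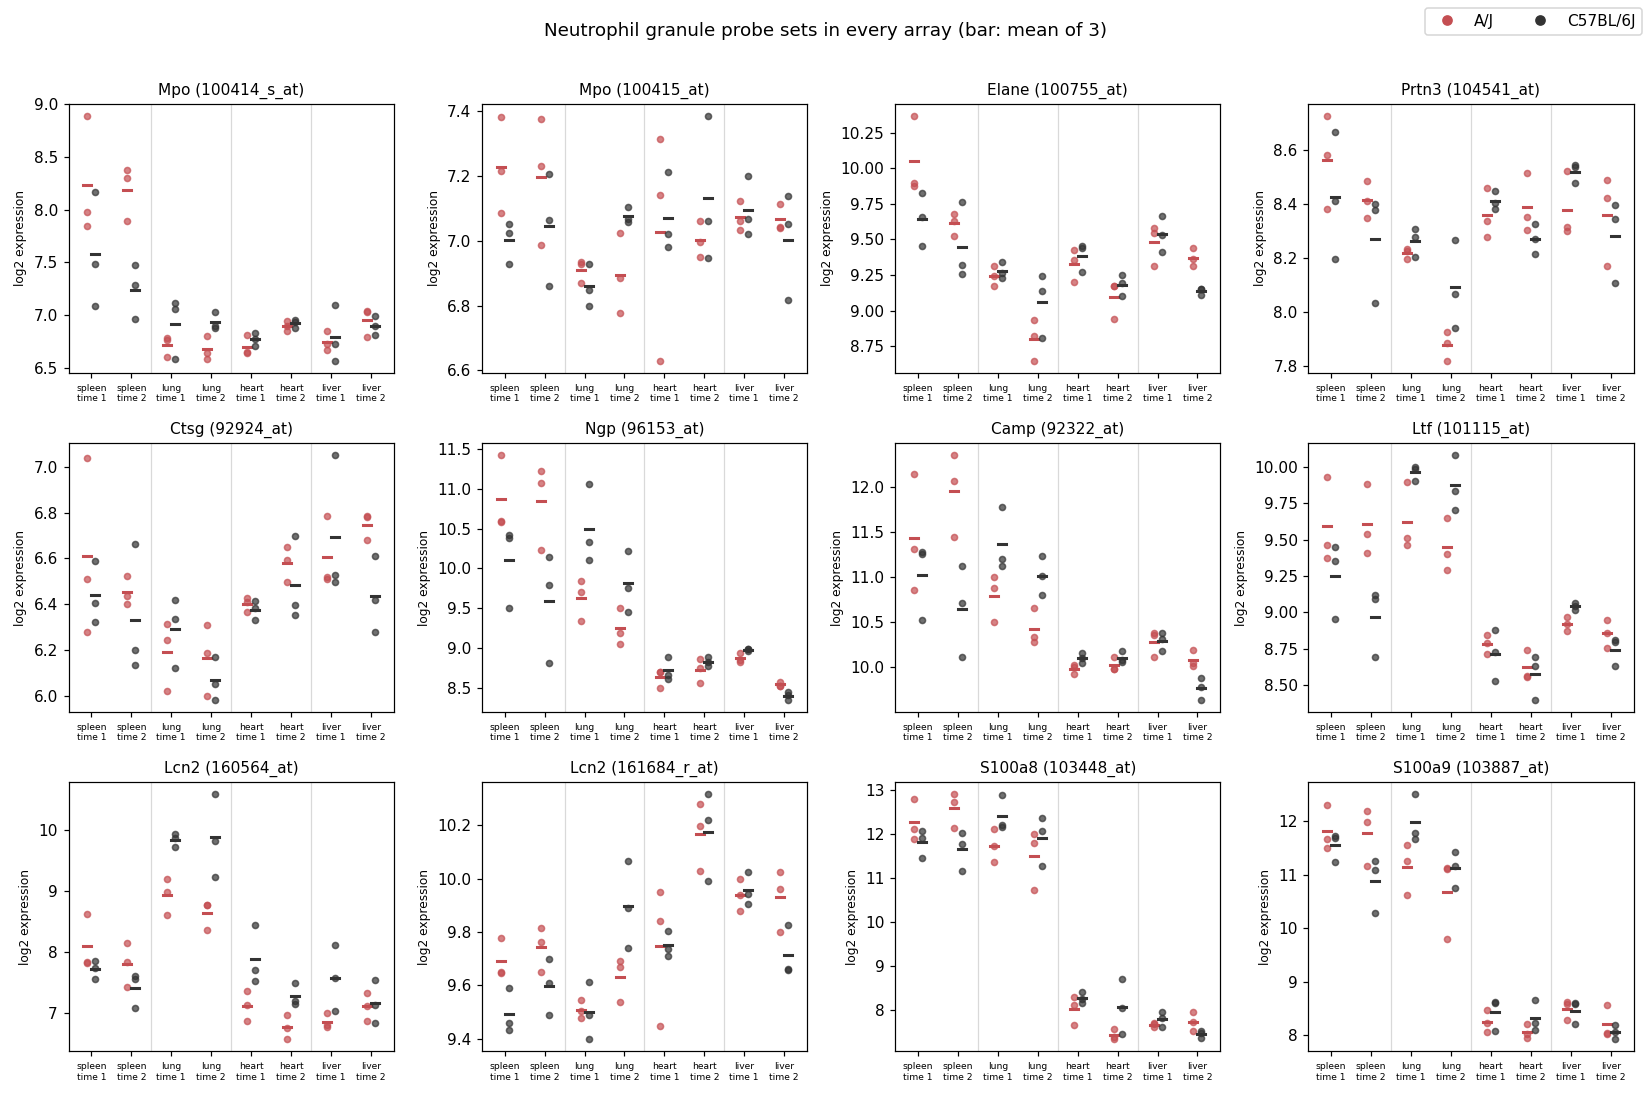
Log2 expression (y axis) of the 12 probe sets in each of the 48 arrays, by tissue and time (x axis) and strain (colour), with bars at the mean of 3 arrays; the y axes differ between panels. S100a8 and S100a9 lay at or above 9.81 in every spleen and lung and at or below 8.69 in every heart and liver.

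The calprotectin genes had the largest tissue differences of the 10 genes. S100a8 ranged from 11.17 to 12.91 in the 12 spleens (median 12.06) and from 10.72 to 12.90 in the 12 lungs (median 12.05), against 7.32 to 8.69 over the 24 hearts and livers (median 7.68). S100a9 ranged from 10.29 to 12.30 in spleen and from 9.81 to 12.50 in lung, against 7.93 to 8.66 in heart and liver. Both calprotectin genes separated spleen and lung from the other tissues without overlap.

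At time 2, when all tissues shared 1 series of array file names, S100a8 was 23.3-fold higher in spleen than in liver (difference 4.54 ± 0.28, n = 6 per tissue, limma adjusted p = 3.97e-13) and 17.4-fold higher in lung than in liver (4.12 ± 0.28, limma adjusted p = 2.99e-12). S100a9 was 9.13-fold and 6.78-fold higher in the same comparisons. Ngp was 3.34-fold higher in spleen and 2.08-fold higher in lung than in liver, Camp 2.6-fold and 1.73-fold, and Ltf 1.4-fold and 1.82-fold. All these differences were called, as were those of the same 5 genes against heart. Of all probe sets, 57.2% were called for spleen against liver, 61.6% for lung against liver, 63% for spleen against heart and 63% for lung against heart. At time 1 the spleen and the heart arrays each had a file name series of their own, and tissues were not tested.

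Azurophil genes stood less far above heart and liver than the calprotectin genes did. Mpo, the peroxidase that makes hypochlorous acid, ranged from 6.97 to 8.89 in spleen with 100414_s_at, and its lung range of 6.58 to 7.11 nearly coincided with the 6.56 to 7.10 of heart and liver. At time 2 it was 1.73-fold higher in spleen than in liver (0.79 ± 0.16, adjusted p = 1.16e-04), while lung and liver differed by -0.12 (95% interval -0.44 to 0.20, adjusted p = 0.519). Elane was 1.21-fold higher in spleen than in liver (adjusted p = 0.0209) but 1.25-fold lower in lung than in liver (adjusted p = 0.00678). Prtn3 and Ctsg, also serine proteases, did not pass between spleen and liver or spleen and heart, and both were lower in lung than in liver and heart. Their spleen ranges (8.03 to 8.73 for Prtn3, 6.14 to 7.04 for Ctsg) overlapped those of heart and liver (8.11 to 8.55 and 6.28 to 7.05).

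At time 2, 7 of 12 probe sets were called higher in spleen than in heart and in liver, against 20.9% of all probe sets, and 6 of 12 were so in lung, against 19.5%. These were 8 different probe sets: Mpo (100414_s_at), Elane, Ngp, Camp, Ltf, Lcn2 (160564_at), S100a8 and S100a9. The other 4 were Prtn3, Ctsg, Mpo (100415_at) and Lcn2 (161684_r_at), which were above heart and liver in neither tissue.

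Spleen and lung also differed from each other. At time 2 all 4 azurophil genes were higher in spleen than in lung: Mpo (100414_s_at) by 0.91 ± 0.16 (adjusted p = 2.78e-05), Elane by 0.60 ± 0.10 (adjusted p = 1.73e-05), Prtn3 by 0.36 ± 0.08 (adjusted p = 0.00104) and Ctsg by 0.28 ± 0.09 (adjusted p = 0.01). The specific granule genes were divided, with Ngp higher in spleen by 0.68 ± 0.26 (adjusted p = 0.0327), Camp at 0.58 ± 0.24 (adjusted p = 0.0513) and not called, and Ltf at -0.37 ± 0.14 (adjusted p = 0.0337) and Lcn2 (160564_at) at -1.64 ± 0.24 (adjusted p = 3.92e-06) lower in spleen. The calls of Ngp and Ltf were each lost in 6 of 24 fits that left out 1 array (highest adjusted p = 0.11 and 0.115). S100a8 (0.42, adjusted p = 0.23) and S100a9 (0.43, adjusted p = 0.177) did not pass. In all, 5 probe sets were higher and 2 lower. These 7 of 12 lie near the general share, as 48.2% of all probe sets were called in either direction. At an unadjusted limma p below 0.05 it was 8 of 12, against 53.3% of all. The number of calls therefore does not set the granule genes apart from other genes in this comparison.

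The tissue difference was also taken within each strain at time 2. Within A/J alone (n = 3 per tissue, limma over all probe sets), Ngp was higher in spleen than in lung by 1.59 ± 0.19 (adjusted p = 6.08e-06), Camp by 1.53 ± 0.17 (2.36e-06), Mpo by 1.52 ± 0.12 (4.11e-08), S100a8 by 1.09 ± 0.26 (0.0031) and S100a9 by 1.1 ± 0.31 (0.00883). Within C57BL/6J alone the same differences were -0.23 ± 0.25 for Ngp (adjusted p = 0.542 by limma), -0.36 ± 0.19 for Camp (0.152), 0.31 ± 0.11 for Mpo (0.0436), -0.24 ± 0.30 for S100a8 (0.585) and -0.24 ± 0.23 for S100a9 (0.456). Elane was higher in spleen in both strains, by 0.81 ± 0.09 in A/J (adjusted p = 3.53e-06) and 0.38 ± 0.13 in C57BL/6J (0.0331). Prtn3 and Ctsg passed within A/J, at 0.54 ± 0.09 (2.24e-04) and 0.29 ± 0.09 (0.0157), and read 0.18 ± 0.12 (adjusted p = 0.271) and 0.27 ± 0.14 (0.16) in C57BL/6J. Ltf read 0.16 in A/J (adjusted p = 0.322) and -0.90 in C57BL/6J (adjusted p = 5.20e-05). Lcn2 (160564_at) was lower in spleen in both strains, with differences of -0.82 in A/J and -2.45 in C57BL/6J (adjusted p = 0.00109 and 3.16e-06).

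Ngp shows the pattern in single animals. The A/J spleens read 10.59, 11.42 and 10.59 (time 1) and 10.23, 11.07 and 11.22 (time 2), and the C57BL/6J spleens 10.41, 9.51 and 10.39 (time 1) and 10.15, 8.82 and 9.80 (time 2). The strains did not overlap at either time, and the lowest C57BL/6J spleen fell inside the 8.35 to 8.99 range of heart and liver. The A/J lungs read 9.70, 9.34 and 9.84 (time 1) and 9.19, 9.51 and 9.06 (time 2), and the C57BL/6J lungs 11.06, 10.11 and 10.33 (time 1) and 10.22, 9.46 and 9.76 (time 2). Every C57BL/6J lung was above every A/J lung at time 1, and the groups overlapped at time 2. The strain difference, A/J minus C57BL/6J, was 1.01 ± 0.26 (adjusted p = 0.0212) in spleen and -0.72 ± 0.17 (adjusted p = 0.0216) in lung, with 6 animals per strain. Among the 16 group means of Ngp the A/J spleen groups were highest (10.87 and 10.84), followed by the time 1 C57BL/6J lungs (10.50). The 8 spleen and lung groups led the order, and none of the gaps between neighbours among those 8 exceeded the pooled SD of the pair.

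Camp, the precursor of the cathelicidin peptide, had the same directions. Its spleen values were 10.86, 12.15 and 11.31 in A/J at time 1 and 11.45, 12.06 and 12.35 at time 2, against 11.28, 10.53 and 11.26 in C57BL/6J at time 1 and 11.12, 10.11 and 10.72 at time 2. In lung they were 11.001, 10.51 and 10.88 in A/J at time 1 and 10.33, 10.66 and 10.28 at time 2, against 11.78, 11.20 and 11.13 in C57BL/6J at time 1 and 11.23, 10.80 and 11.01 at time 2. The A/J lungs lay below the C57BL/6J lungs without overlap at both times, whereas the spleens overlapped at time 1 and separated at time 2. The strain difference was 0.86 ± 0.26 (adjusted p = 0.0485) in spleen, just inside the threshold, and -0.58 ± 0.12 (adjusted p = 0.0127) in lung.

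Ltf, the iron-binding protein lactoferrin, read 9.38, 9.93 and 9.46 in A/J spleen at time 1 and 9.40, 9.54 and 9.88 at time 2, against 9.45, 8.95 and 9.35 and then 9.12, 8.69 and 9.09 in C57BL/6J. In A/J lung it read 9.46, 9.51 and 9.90 at time 1 and 9.29, 9.65 and 9.40 at time 2, against 9.996, 9.99 and 9.90 and then 9.70, 10.08 and 9.83 in C57BL/6J. The lungs of the strains did not overlap at either time, although the nearest A/J and C57BL/6J lungs of time 1 were equal to 2 decimals, nor did the spleens at time 2. The strain difference was 0.49 ± 0.13 (adjusted p = 0.0255) in spleen and -0.38 ± 0.09 (adjusted p = 0.0216) in lung.

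Lcn2 had the largest lung difference of the 12 probe sets. With 160564_at, A/J lung read 8.99, 8.61 and 9.20 at time 1 and 8.37, 8.78 and 8.77 at time 2, and C57BL/6J lung 9.94, 9.86 and 9.72 and then 9.81, 9.24 and 10.58. No A/J lung reached the lowest C57BL/6J lung of the same time. The difference was -1.07 ± 0.18 (adjusted p = 0.00265). In spleen it was 0.38 ± 0.16 (95% interval 0.05 to 0.72, adjusted p = 0.139), and heart was the other tissue with a called difference, -0.64 ± 0.14 (adjusted p = 0.0109). The second probe set, 161684_r_at, gave -0.13 ± 0.07 (adjusted p = 0.361) in lung and ranged from 9.40 to 10.06 there, against 9.45 to 10.32 in heart and liver, so the probe sets did not show the same tissue pattern.

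Mpo (100414_s_at) was the azurophil probe set called between strains. It read 7.98, 8.89 and 7.85 in A/J spleen at time 1 and 7.89, 8.30 and 8.38 at time 2, against 8.16, 7.09 and 7.48 and then 7.47, 6.97 and 7.28 in C57BL/6J. The strains overlapped at time 1 through a single C57BL/6J spleen and were separate at time 2. The difference was 0.80 ± 0.20 (adjusted p = 0.0178). The second Mpo probe set, 100415_at, read 0.19 ± 0.08 (adjusted p = 0.171) and stayed within the range of heart and liver. Elane read 0.29 ± 0.11 (adjusted p = 0.126), Prtn3 0.14 ± 0.09 (adjusted p = 0.401) and Ctsg 0.15 ± 0.12 (adjusted p = 0.536). In lung no azurophil probe set passed, with Mpo at -0.23 ± 0.08 (adjusted p = 0.149) and Elane at -0.15 ± 0.08 (adjusted p = 0.341).

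S100a8 read 12.13, 12.79 and 11.89 in A/J spleen at time 1 and 12.15, 12.73 and 12.91 at time 2, against 12.08, 11.45 and 11.91 and then 11.78, 11.17 and 12.03 in C57BL/6J. The strains overlapped at time 1 and separated at time 2, and the difference was 0.70 ± 0.20 (adjusted p = 0.0355). In lung S100a8 differed by -0.54 ± 0.24 (95% interval -1.05 to -0.03, adjusted p = 0.233). Its partner S100a9 differed by 0.59 ± 0.22 in spleen (95% interval 0.11 to 1.07, adjusted p = 0.11) and -0.64 ± 0.24 in lung (95% interval -1.16 to -0.12, adjusted p = 0.161). Neither lung difference was called. Replicate 3 of the time 2 A/J lungs was the lowest lung for both genes, at 10.72 for S100a8 and 9.81 for S100a9.

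**Figure D2:**
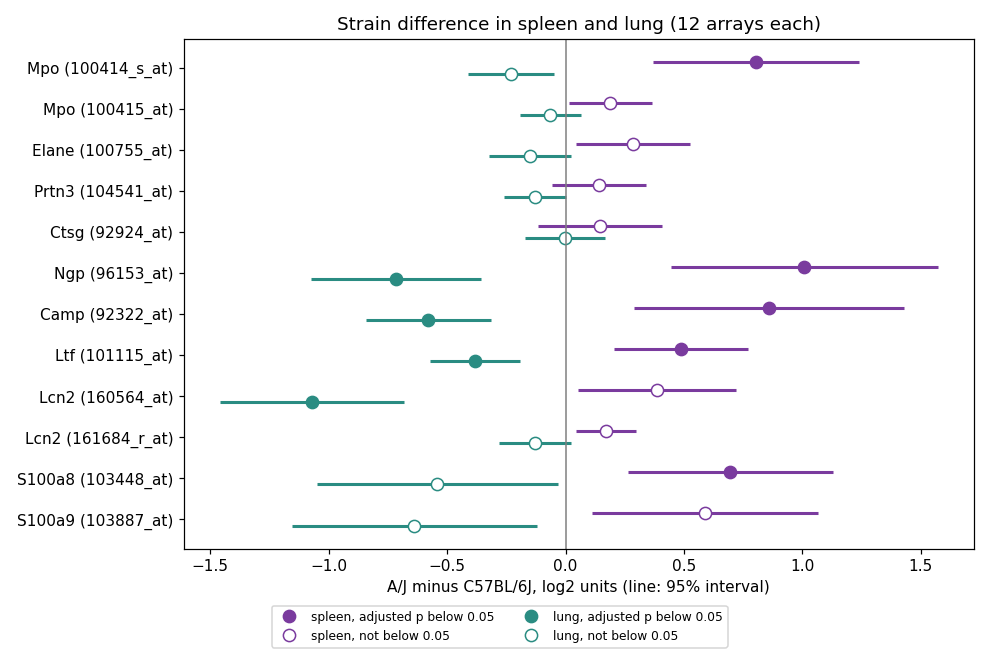
Strain difference (x axis, A/J minus C57BL/6J in log2 units) of each probe set in spleen (upper line of each pair) and lung (lower line), with 95% intervals from 12 arrays per tissue; filled points have an adjusted p below 0.05. All spleen points lie to the right of 0 and all lung points to the left, Ctsg in lung at -0.0012 being nearest to 0.

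The strain effects in spleen and lung were then compared directly, over 24 arrays in limma. The fit had no term for an animal that may have given both tissues. The spleen effect exceeded the lung effect by 1.72 ± 0.34 (adjusted p = 0.00175) for Ngp, 1.46 ± 0.26 (adjusted p = 7.59e-04) for Lcn2 (160564_at), 1.44 ± 0.32 (adjusted p = 0.00473) for Camp, 1.04 ± 0.23 (adjusted p = 0.00613) for Mpo (100414_s_at) and 0.87 ± 0.17 (adjusted p = 0.00157) for Ltf. S100a8 followed at 1.24 ± 0.34 (adjusted p = 0.023), S100a9 at 1.23 ± 0.36 (adjusted p = 0.0332) and Lcn2 (161684_r_at) at 0.30 ± 0.09 (adjusted p = 0.0455). These 8 of 12 compare with 3.86% of all probe sets called in that direction and 7.87% in either. Elane (0.43, adjusted p = 0.0672), Prtn3 (0.27, 0.161), Mpo 100415_at (0.25, 0.145) and Ctsg (0.15, 0.642) did not pass. By class, 4 of 4 specific granule genes, 2 of 2 calprotectin genes and 1 of 4 azurophil genes had a called probe set. The classes were not tested against each other. In lung no azurophil probe set was called above heart and liver at time 2.

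The calls in spleen alone rested on few animals. The count of 5 fell to 1 without A/J replicate 2 of time 1, without C57BL/6J replicate 2 of time 1 or without A/J replicate 3 of time 2, to 2 without A/J replicate 2 of time 2 and to 3 without C57BL/6J replicate 2 of time 2. Mpo was the call left in each of the first 3 cases. With 1 spleen left out, Camp lost its call in 9 of 12 fits (highest limma adjusted p = 0.113). S100a8 lost it in 6, Ngp and Ltf in 4 each and Mpo in 0. Over all alternative fits Camp lost its call in 13 of 21. In lung the count of 4 fell to 2 without A/J replicate 2 of time 1 or without A/J replicate 3 of time 2. In the direct comparison of the tissues the count stayed between 6 and 8 when any 1 of the 24 arrays was left out, and Ngp, Camp, Ltf, S100a8, Lcn2 (160564_at) and Mpo (100414_s_at) were called each time.

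Both times gave the same direction for the genes called in each tissue. In spleen Ngp differed by 0.77 at time 1 (adjusted p = 0.306) and 1.25 at time 2 (adjusted p = 0.0349), Camp by 0.42 (0.575) and 1.3 (0.0203), and S100a8 by 0.46 (0.423) and 0.94 (0.0346). With both times in 1 model, 0 of 12 probe sets were called at time 1 (limma, 3 at an unadjusted p below 0.05, 2.91% of all called) and 5 at time 2 (16% of all). In lung Ngp differed by -0.87 (adjusted p = 0.0841) and -0.56 (0.125), and Lcn2 by -0.91 (0.101) and -1.24 (0.0106). There 0 were called at time 1 (limma, 5 at an unadjusted p below 0.05, 2.14% of all called) and 2 at time 2 (10.2% of all).

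The change of the strain difference between the times was called for 0 of 12 probe sets in spleen (limma, 0.209% of all called, 0 of the 12 at an unadjusted p below 0.05) and 0 of 12 in lung (0.177% of all, with 2 of the 12 at an unadjusted p below 0.05). The intervals were wide, for Camp in spleen from -0.16 to 1.93.

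Arrays of the strains also separated without overlap. A/J was above C57BL/6J for 4 of 12 probe sets in spleen at time 1 (18.4% of all) and 5 at time 2 (10.9% of all), and C57BL/6J was above A/J for 0. C57BL/6J was above A/J for 6 of 12 in lung at time 1 (10.2% of all) and 7 at time 2 (15.4% of all), and A/J was above for 0. Separation was seen in the other tissues too. In liver, C57BL/6J was above for 3 of 12 at time 1 (9.45% of all) and A/J for 4 of 12 at time 2 (18.3% of all). In heart, C57BL/6J was above for 2 of 12 at time 1 (9.88% of all) and 1 at time 2 (9.03% of all).

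Between the times, 6 of 12 probe sets changed in lung (34.7% of all). Ngp (-0.53), Camp (-0.36), Elane (-0.33), Prtn3 (-0.26) and S100a9 (-0.66) were lower at time 2 and Lcn2 161684_r_at was higher (0.26). The count fell to 3 without A/J replicate 3 of time 1 or without A/J replicate 3 of time 2. In spleen 1 of 12 changed (31.9% of all), Elane at -0.32 ± 0.11 (adjusted p = 0.0441), a call that was lost when any of 10 of the 12 spleens was left out. The array file names of time 1 and time 2 form different series in each tissue, so time and file name series cannot be told apart.

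Within groups, deviations from the group mean were compared between all 12 probe sets, with no choice by level. Over the 12 spleens r exceeded 0.5 in 42 of 66 pairs (range -0.33 to 0.97, median 0.69), and over the 12 lungs in 12 of 66 (range -0.62 to 0.96, median 0.09). In spleen the second probe sets of Mpo and Lcn2 and Prtn3 had the lowest median r with the other 11, -0.02, 0.04 and 0.33, and S100a8 the highest, 0.86. All genes of an array share its RNA and normalization, 2 pairs are probe sets of 1 gene, and 6.25% of all probe sets had r above 0.5 with Ngp in spleen and 14.6% in lung.

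Single spleens stood out for many members at once. At time 1, A/J replicate 2 was the highest of its group for 12 of 12 probe sets (mean deviation 0.41), and C57BL/6J replicate 2 was the lowest of its group for 10 of 12 (-0.26). At time 2, A/J replicate 1 (-0.25) and C57BL/6J replicate 2 (-0.27) were the lowest for 8 of 12 each. The same ranks were not counted over all probe sets, so these counts are not shown to be particular to the members. The mean level of the exocrine pancreas list separated some of the same spleens. It was 9.51 in A/J replicate 2 of time 1, against 12.44 and 11.92 in the other animals of that group. In C57BL/6J it was 11.53 in replicate 2 of time 1, against 9.35 and 9.28, and 9.20 in replicate 2 of time 2, against 12.43 and 11.32. The A/J spleens of time 2 lay at 9.29, 9.12 and 9.66. The part of pancreas RNA in these deviations was not tested.

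**Figure D3:**
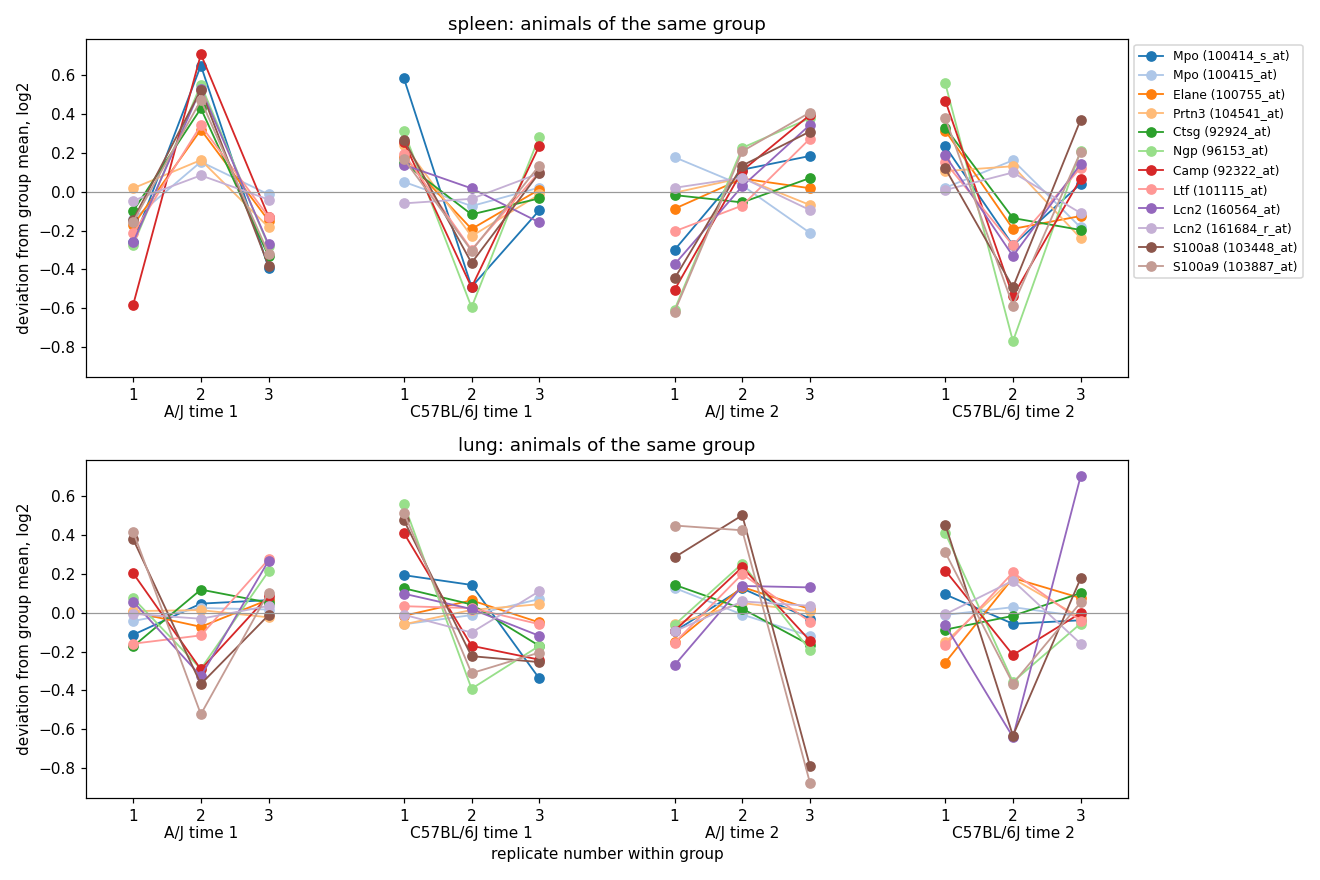
Deviation of each animal from the mean of its group (y axis, log2 units) for the 12 probe sets, in spleen (upper panel) and lung (lower panel), with the 3 replicates of each group on the x axis; lines join the replicates of 1 probe set and imply no order. In spleen all 12 probe sets are highest in A/J replicate 2 of time 1, and in lung S100a8 and S100a9 fall in A/J replicate 3 of time 2 while Lcn2 (160564_at) rises in C57BL/6J replicate 3 of time 2.

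By similarity to the mean of the 10 genes over the 12 spleens (Lcn2 read by 161684_r_at, its probe set with the higher mean), the nearest other genes by Pearson r were Pck2 (0.94), Arrb1 (0.89), Car1 (0.88), Ifrd2 (0.87), Cyth3 (0.87), Rnf10 (0.86), Ache (0.86), Slc4a1 (0.86). Car1, a carbonic anhydrase of red cells, and Slc4a1, the red-cell anion exchanger, differed between the strains in spleen by 1.58 ± 0.32 (limma adjusted p = 0.0048) and 1.79 ± 0.35 (0.00402). Over the 12 lungs the nearest were Serpina3n (0.90), Cerk (0.90), Lta4h (0.90), Mpdz (0.90), Ptgis (0.90), Zfpm1 (0.89), Prkab1 (0.89), Trp53i13 (0.89). Lta4h, which makes the neutrophil attractant leukotriene B4, differed by -0.33 ± 0.07 in lung (limma adjusted p = 0.0127). No gene was among the 8 nearest in both tissues, and these r values include the strain difference itself.

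Other neutrophil genes were divided between the strains. Of 40 listed genes 27 were measured, among them receptors, oxidase subunits and adhesion molecules, many of them shared with monocytes and macrophages. In spleen 3 were higher in A/J and 10 lower (12.7% of all probe sets called in either direction), with a list median of -0.14. Lyz2, lysozyme of myeloid cells, differed by -0.70 ± 0.10 (adjusted p = 6.69e-04), although its second probe set read 0.15 (adjusted p = 0.192). Cyba, a subunit of the phagocyte NADPH oxidase, differed by -0.39 ± 0.05 (4.85e-04), Itgb2, the β2 integrin chain, by -0.38 ± 0.06 (9.54e-04) and Cxcr2, the chemokine receptor of mature neutrophils, by -0.37 ± 0.06 (0.00156). The 3 higher genes were Fpr2 and, chosen after their values were seen, Ly6g and Ccrl2. Ly6g, the standard surface marker of mouse neutrophils, differed by 0.38 ± 0.08 in spleen (adjusted p = 0.0074) and 0.06 ± 0.06 in lung (0.636).

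In lung 2 of the 27 were higher and 2 lower (5.22% of all probe sets called in either direction), with a list median of -0.0026. Chil3, a chitinase-like protein of neutrophil granules and of alveolar macrophages, was at 11.15 ± 0.39 (SD, n = 6) in A/J lung and 12.76 ± 0.36 in C57BL/6J lung. Its difference was -1.61 ± 0.16 in lung (adjusted p = 3.49e-05) and -0.30 ± 0.11 in spleen (0.0886). Mmp9, gelatinase of the tertiary granules, was lower in A/J in lung (-0.26 ± 0.06, adjusted p = 0.0159) and in spleen (-0.28 ± 0.08, 0.0336), with its second probe set at -0.04 and -0.12 and not called. The formyl peptide receptor gene Fpr2 was higher in A/J in both, by 0.83 ± 0.14 in lung and 0.61 ± 0.11 in spleen. Slpi, an inhibitor of elastase, was higher in A/J lung by 0.21 ± 0.06 (adjusted p = 0.0453), while its other 3 probe sets read 0.57 (0.0187), 0.02 (0.919) and -0.05 (0.82). Strain effects differed between spleen and lung for 8 of the 27 (7.87% of all probe sets). Of these, 1 went in the direction of the granule genes (Chil3, 1.31 ± 0.21, adjusted p = 2.93e-04) and 7 in the other.

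Of 9 measured neutrophil chemokines and growth factors, 1 was higher in A/J spleen and 1 in A/J lung (12.7% and 5.22% of all probe sets called in either direction). The first was Cxcl5 (0.31 ± 0.08, adjusted p = 0.0264). The second was Cxcl12, the ligand that retains neutrophils in marrow (0.65 ± 0.12, adjusted p = 0.00614), whose other probe sets were not called in lung.

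Genes of other blood cells differed in the same samples. Of 13 erythroid genes 11 were higher in A/J spleen (6.05% of all probe sets), with a median of 1.15, and 0 differed in lung (5.22% of all). Their mean level ranged from 11.09 to 11.94 over the A/J spleens and from 9.51 to 11.09 over the C57BL/6J spleens. Rhag, the Rh-associated glycoprotein, was higher by 2.24 ± 0.35 (adjusted p = 9.37e-04) and Klf1, the erythroid transcription factor, by 1.64 ± 0.26 (0.00126). Of 22 cell cycle genes 16 were higher in A/J spleen (6.05% of all), with a median of 0.81, and 0 differed in lung (5.22% of all). The mean of that list was 10.14 and 10.59 in A/J spleen at time 1 and time 2, against 9.77 and 9.36 in C57BL/6J. The part of these cells in the spleen values of the granule genes was not tested.

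Platelet genes differed in lung. Of 6 measured megakaryocyte and platelet genes 4 were lower in A/J lung and 1 was higher in A/J spleen, and 4 passed the comparison of the tissues. Over all probe sets, 5.22% were called in lung, 12.7% in spleen and 7.87% in that comparison, in either direction. Gp1bb, a chain of the platelet receptor for von Willebrand factor, differed by 0.44 ± 0.11 in spleen (adjusted p = 0.016) and -0.53 ± 0.08 in lung (0.00122). Vwf itself, made by endothelium and megakaryocytes, read 0.32 ± 0.11 in spleen (adjusted p = 0.0654) and -0.61 ± 0.08 in lung (4.78e-04), although its second probe set gave -0.20 in lung (adjusted p = 0.36). The mean of the list was 8.85 to 9.02 over the A/J lungs and 9.14 to 9.36 over the C57BL/6J lungs, and its part in the lung values of the granule genes was not tested.

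Of 13 monocyte and macrophage genes 5 were lower in A/J spleen and 0 higher (12.7% of all probe sets called in either direction). Cd5l (-2.46 ± 0.16), Mpeg1 (-1.57 ± 0.11) and Marco (-1.36 ± 0.10), all genes of macrophages, had the largest differences of those named by the rule. In lung 2 were higher in A/J and 1 was lower, Mpeg1 (-0.83 ± 0.10). The second Mpeg1 probe set read -0.01 in spleen (adjusted p = 0.936) and -0.03 in lung (0.822). Of 11 B cell genes 6 were lower in A/J spleen.

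**Figure D4:**
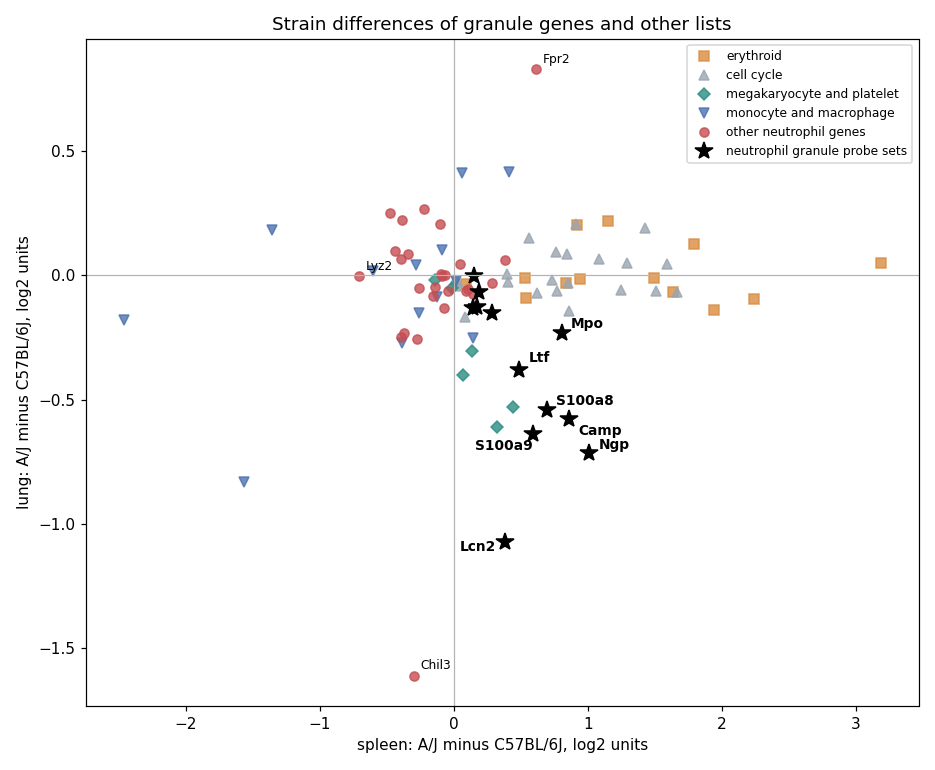
Strain difference (A/J minus C57BL/6J, log2 units) in spleen (x axis) and lung (y axis) of the 12 granule probe sets (stars) and of 5 gene lists, 1 point per gene. The granule probe sets with the larger differences occupy the lower right quadrant, where Gp1bb (0.44, -0.53) and Vwf (0.32, -0.61) of the platelet list also lie, whereas erythroid and cell cycle genes spread along the x axis with lung differences near 0.

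Exocrine pancreas genes were high in some spleen samples. Their mean exceeded 11 in 5 spleens, 2 of A/J at time 1 (12.4 and 11.9) and 3 of C57BL/6J (11.5 at time 1, 12.4 and 11.3 at time 2). Leaving out these 5 arrays kept a single array in A/J at time 1 and in C57BL/6J at time 2, replicate 2 in both, which were described above as high and low in their groups, and the lone arrays were assumed to vary like the other groups. On that footing the spleen differences were 1.55 ± 0.28 for Ngp, 1.39 ± 0.26 for Camp, 1.15 ± 0.19 for Mpo and 1.13 ± 0.21 for S100a8. For the same genes the spleen effect exceeded the lung effect by 2.27 ± 0.35, 1.97 ± 0.28, 1.38 ± 0.20 and 1.67 ± 0.40. Hepatocyte genes were higher in the A/J spleens of time 2, with a list mean of 8.80 to 9.58 against 8.01 to 8.04 in A/J at time 1 and 7.86 to 8.51 in C57BL/6J. In lung that mean was 9.12 to 9.60 in A/J and 8.18 to 9.20 in C57BL/6J at time 1. The part of hepatocyte RNA in the granule gene values was not tested.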

How the data were processed

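RNA from 48 mouse tissue samples (about 20 µg of total RNA each, per the labels) was hybridised to MG-U74Av2 arrays. The authors deposited log2 values for each probe set; their summary method and normalization are not given in the sources used here, and array medians ranged from 8.87 to 9.02. After 66 control probe sets were left out, 12422 remained, with no filter on level. Names came from the platform annotation: 10833 probe sets had 1 symbol, 396 several and 1193 none listed. Promoters came from RefSeq (GRCm38.p6).

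Groups followed the sample titles. Linear models were fitted in limma 3.58.1 (R 4.3.3): strain with time as an additive term in each tissue, strain by time, strain by tissue over the spleen and lung arrays, and tissue contrasts at time 2. Array file names form series that hold both strains, so strain contrasts lie within them. The members and lists were chosen with earlier results of these data known. Besides the 10 members, the text names up to 4 genes of a list with the smallest strain p in spleen (for other neutrophil genes also in lung), read by the probe set with the highest mean, and the 8 genes nearest by correlation in each tissue; exceptions are marked. The scripts were tested on simulated data. Alternatives were other normalizations, probe sets of higher level, a variance trend, each time, each strain, all arrays in 1 fit, the mean of a gene's probe sets, each array left out, a replicate block and the spleens without high pancreas genes. Python 3.11.15 with pandas 2.3.3 and matplotlib 3.10.9 made the descriptions and plots.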

Additional observations from a re-analysis of the deposited data

Results flagged for a closer look

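For 8 probe sets the strain difference in spleen departed from that in lung by a test of the difference itself (A/J minus C57BL/6J, spleen minus lung, limma over 24 arrays). It was 1.72 for Ngp, 1.46 for Lcn2 (160564_at), 1.44 for Camp, 1.24 for S100a8, 1.23 for S100a9, 1.04 for Mpo (100414_s_at), 0.87 for Ltf and 0.30 for Lcn2 (161684_r_at). S100a9 lost the call in 12 of 30 alternatives (highest adjusted p = 0.0644) and Lcn2 (161684_r_at) in 18 of 30 (highest adjusted p = 0.302). The other 6 probe sets were called in each alternative run for them.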

How the results depend on the processing

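Of 12 probe sets, the 5 called between strains in spleen became 2 with a variance trend and robust fit and 0 with the replicate block (limma adjusted p from 0.0572 for Mpo to 0.121 for Camp). The spleen count was 0 at time 1 alone, 4 at time 2 alone and 1 to 5 when 1 array was left out. With all 48 arrays in 1 fit it rose to 7. In lung, 4 became 1 at time 1 alone, 2 at time 2 alone and 2 to 5 with 1 array left out. In heart, 1 became 0 among probe sets of higher level, a set that did not hold the called Lcn2 probe set (160564_at). The heart count was 0 at time 1 alone and 1 to 2 with 1 array left out (2 without C57BL/6J replicate 2 of time 2). For time, 1 in spleen became 0 with quantile normalization, 0 with median centring and 0 to 1 with 1 array left out, and 6 in lung became 3 to 6. Spleen against lung at time 2 went from 7 to 4 among probe sets of higher level, where fewer were tested. The cause of the other changes was not tested. For spleen against lung at time 2 the sign turned for Ltf in A/J alone (0.16) and for Ngp in C57BL/6J alone (-0.23). Over all probe sets, strain calls at time 1 alone went from 1580 to 603 in spleen and from 649 to 359 in lung. Without the 5 spleens with high pancreas genes some groups kept a single array, so only the effect sizes above are given. Of 24 same-numbered pairs of strains, 7 correlated above 0.1 (from -0.58 to 0.36). Same-numbered pairs of tissues within a strain did so in 6 of 36 at time 1 and 8 of 36 at time 2. Pairs with different numbers were not set beside these. Whether spleen and lung came from the same animals was not settled, and the comparison of strain effects between tissues made no allowance for it. The replicate block left 6 of the 8 calls in the comparison of strain effects between tissues. Apart from the fall from 5 to 0 for strain in spleen, it moved no other member count by over 1.5 times.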

Other observations

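Lcn2 (160564_at) read lower in A/J than in C57BL/6J in lung (-1.07) and heart (-0.64), both called, with a liver difference of -0.38 (limma adjusted p = 0.307). The C57BL/6J arrays lay above the A/J arrays without overlap in heart at both times and in liver at time 1. Whether the heart difference departs from that in spleen was not tested.

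Ccrl2, the gene next to Ltf on chromosome 9 and chosen here after its value was seen, differed by 0.28 ± 0.08 in spleen (limma adjusted p = 0.0402) and -0.03 ± 0.06 in lung (0.825).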
